A study of Mus musculus with 16 samples.

Results

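The COMMD family comprises 10 genes, *Commd1* to *Commd10*, and all 10 were among the 27998 genes counted by single-cell RNA sequencing in this study. *Commd10* was singled out because its counts had been seen to be higher in *Tet2*-KO than in WT hematopoietic stem cells of these same mice. The other 9 members were taken by name. The genotype difference of *Commd10* is therefore described with its values and no test, whereas the other 9 members were tested for genotype and all 10 were tested for IL1β, which played no part in choosing them.

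The cells were bone marrow cells from which lineage-positive cells had been removed by magnetic depletion. They came from 16 C57BL/6 mice of 6 to 12 weeks by the labels, 4 in each of 4 groups. WT mice carried the floxed allele alone (*Tet2* fl/fl), and *Tet2*-KO mice were labelled *Vav-Cre-Tet2-/-*, that is *Tet2* fl/fl mice that also carried *Vav-Cre*, which is active across blood cells. Within each genotype, mice received IL1β intraperitoneally at 500 ng per mouse and day or vehicle for 5 weeks. The cells of each mouse carried a hashtag antibody, and each of 8 libraries pooled 2 mice of 1 group, so mice of 1 pool also share a library. All *Tet2*-KO mice and no WT mouse carried *Vav-Cre*, so loss of *Tet2* and carriage of the transgene cannot be told apart in any genotype comparison here. As background, a widely used *Vav1-iCre* mouse line is registered under a name that places its transgene within *Commd10*. By the study's methods, the *Vav-Cre* *Tet2* fl/fl colony came from another laboratory and was genotyped with primers for *iCre*. The registered name of the line is not given in the sources used here, and the part of the transgene in the *Commd10* values was not tested.

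COMMD proteins share a C-terminal COMM domain and assemble with each other. Together with CCDC22 and CCDC93 they form the CCC complex, which joins the retriever subcomplex (VPS35L, VPS26C and VPS29) in the Commander assembly. With the sorting nexin SNX17 and the actin-nucleating WASH complex, Commander returns membrane proteins from endosomes to the cell surface. COMMD1 is known for its part in copper handling through the transporters ATP7A and ATP7B and as a brake on NF-κB, where it promotes ubiquitination of RelA with a CUL2 ligase. IL1β is an activator of NF-κB, and HSCs and their myeloid progeny respond to it.

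Of the 94917 barcodes that passed the quality limits, 57896 were assigned to 1 mouse each by their hashtags. These gave 4388604 to 44152768 unique molecular identifiers (UMIs, which count captured RNA molecules) per mouse from 698 to 6432 cells, at 5690 to 10159 UMIs per cell. The assigned cells of WT vehicle mice were clustered without the COMMD genes, and clusters were named from lists of marker genes, so that HSC below stands for HSC-like cells, and likewise for the other names. The 16 named classes were HSC, MEP (the megakaryocyte-erythroid progenitor), MegP (megakaryocyte progenitor), CFU-E (erythroid progenitor), EryB (erythroblast), IMP (early myeloid progenitor), Gran/Mono Prog (progenitor committed to granulocytes or monocytes), Mono (monocyte), Neut (neutrophil), Baso (basophil), Eo (eosinophil), DC (dendritic cell), pDC (plasmacytoid dendritic cell), CLP (lymphoid progenitor), B/plasma (B and plasma cells) and T/NK (T and natural killer cells). 2 further clusters, with 522 assigned cells, stayed unnamed, one led by neutrophil genes together with globin genes and the other by *Rora*, *Bcl11b* and *Tcf7*. *Tet2* itself does not check the knockout, because UMIs at the 3′ end of a transcript do not show whether an exon is missing. Its level over all cells of a mouse was 32.8 to 46.6 CPM (UMIs of the gene scaled to a library total of 1e+06) in WT and 38.2 to 47.8 CPM in *Tet2*-KO mice given vehicle. With IL1β it was 49.2 to 60.0 CPM in WT and 59.2 to 76.0 CPM in *Tet2*-KO mice. Going by *Xist* and Y-linked counts, 1 of 4 mice in each WT group and 2 of 4 in each *Tet2*-KO group were female. WT vehicle mouse 2 and WT IL1β mouse 3 had Y-linked counts together with *Xist* at 75.0 and 278 CPM, and each shared its pool with the female of its group. Whether this came from cells given to the wrong mouse or from free RNA of the pool mate was not tested.

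Promoter sequences are shown for *Commd1*, the member called lower with IL1β in the most cell classes, and for *Commd8*, one of the members called in none. *Commd10*, which was also called in none, is not shown. They come from RefSeq (GRCm38.p6), on the minus strand, and stop where an annotated exon begins. Capitals mark matches to the motifs searched, on either strand.
*Commd1*, chr11:22982383-22982534, 152 bases: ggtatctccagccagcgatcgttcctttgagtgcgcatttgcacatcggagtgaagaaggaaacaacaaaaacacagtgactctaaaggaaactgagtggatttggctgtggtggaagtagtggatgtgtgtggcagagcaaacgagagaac
*Commd8*, chr5:72168190-72168439, 250 bases: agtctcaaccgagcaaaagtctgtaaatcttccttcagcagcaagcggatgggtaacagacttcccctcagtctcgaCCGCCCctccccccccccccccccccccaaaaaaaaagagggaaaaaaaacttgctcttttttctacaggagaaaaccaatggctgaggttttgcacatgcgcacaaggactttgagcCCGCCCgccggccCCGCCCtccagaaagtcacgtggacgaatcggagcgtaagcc

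The capitals in the *Commd8* sequence are 3 copies of the GC box GGGCGG, read on the other strand, and the *Commd1* stretch held no motif in the part printed. In windows of 300 bases, from 250 before to 50 after a gene's start, the GC box was present on either strand at 5 of the 7 members with a RefSeq entry off chromosome 18 (*Commd1*, *Commd3*, *Commd4*, *Commd6* and *Commd8*). Of all 32851 promoters, 35.7% held it. The ETS motif CCGGAAG was at *Commd4* and *Commd6* (8.86% of all promoters), the NRF1 motif at *Commd1* (at the second of its RefSeq starts), *Commd6* and *Commd7* (4.60%), and the YY1 motif AAGATGGC at *Commd9* (2.75%). In these windows neither the cyclic AMP response element TGACGTCA (1.79%) nor the NF-κB motif (4.51%) was found. The promoters of *Commd2*, *Commd5* and *Commd10* were not analysed here. No motif in this set contains another, and a match is a string of letters rather than a bound site.

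In the annotation of GRCm38, *Commd10* (ENSMUSG00000042705) lies on the plus strand of chromosome 18 from 46958816 to 47234284, and the end of its nearest downstream gene, *Sema6a*, lies 1314 bases beyond it on the minus strand. A further 5 annotated genes overlap *Commd10* and were not among the genes counted. *Commd1* (ENSMUSG00000051355), on the minus strand of chromosome 11 from 22896136 to 22982382, overlaps *Gm28048* on the same strand and *Zrsr1* on the opposite strand. Reads in the part shared with *Gm28048* may have been split or dropped by the authors' counting, so the level of *Commd1* is uncertain to that extent. *Commd3* (ENSMUSG00000051154, chromosome 2 from 18672384 to 18676231) ends 787 bases before the start of *Bmi1* on the same strand. *Commd8* (ENSMUSG00000029213) lies on the minus strand of chromosome 5 from 72156575 to 72168189. All 10 genes are annotated as protein coding.

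*Commd10*, a Commander subunit that has been studied as a restraint on the inflammasome of monocytes, was higher in every *Tet2*-KO mouse than in any WT mouse when all assigned cells of a mouse were summed. With vehicle the 4 WT mice had 9.91, 8.94, 9.41 and 9.06 CPM, and the 4 *Tet2*-KO mice 29.7, 27.6, 29.6 and 31.7 CPM. With IL1β the WT mice had 10.6, 9.73, 9.34 and 8.65 CPM and the *Tet2*-KO mice 26.9, 32.5, 30.04 and 26.1 CPM. The 8 *Tet2*-KO mice lay between 26.1 and 32.5 CPM and the 8 WT mice between 8.65 and 10.6 CPM, whichever treatment they had received. The log2 fold change between genotypes was 1.66 (SE 0.0874) with vehicle and 1.59 (SE 0.0853) with IL1β, 3.17-fold and 3.00-fold. In a sum over all cells of a mouse, fewer cells of a type and less RNA per cell cannot be told apart, so each class was also taken by itself.

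**Figure D1:**
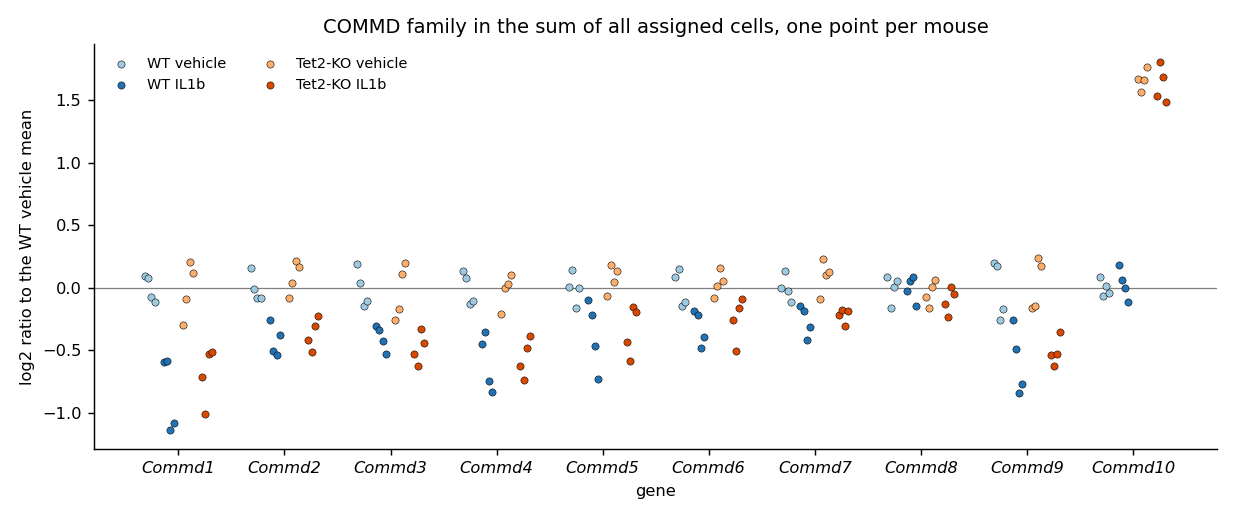
Level of each COMMD gene in the sum of all assigned cells, as the log2 ratio to the mean of the WT vehicle mice (vertical axis), with 1 point per mouse and 4 mice in each of the 4 coloured groups. The *Commd10* points of *Tet2*-KO mice form a separate cloud high above the line, whereas most IL1β points of the other members except *Commd8* lie below it.

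UMIs were then summed per mouse within each cell class, scaled with TMM factors and fitted with edgeR. *Commd10* passed the filter on low counts in 12 of the 16 classes. In 4 of them, Baso, DC, Neut and pDC, too few WT mice reached the count minimum, so that these classes passed only through *Tet2*-KO mice and favour a higher *Tet2*-KO level. In the other 8 the WT mice alone would have passed. The fitted level of *Commd10* was higher in *Tet2*-KO than in WT mice in 12 of these 12 classes, with either treatment, which is the contrast that chose it. Averaged over both treatments, the log2 fold change ranged from 0.30 in MegP to 2.72 in Baso with a median of 1.65 over classes. Over the 8 classes that the WT mice alone would have passed, the highest was 1.94, and the median was 1.53 with vehicle and 1.37 with IL1β. The 4 *Tet2*-KO mice lay above all WT mice in 10 of 12 classes with vehicle and in 10 of 12 with IL1β. Over all gene and class pairs, 2.03% were apart in this direction with vehicle and 2.66% with IL1β, and nothing is read from this comparison because *Commd10* was selected by it.

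In HSC, the class in which *Commd10* had been noticed, the WT vehicle mice had 13.96, 0, 10.7 and 8.40 CPM and the *Tet2*-KO vehicle mice 32.9, 21.9, 28.3 and 36.0 CPM. The WT mouse at 0 had 73667 UMIs in 31 HSC, which allows up to 40.7 CPM (3 UMIs of that total) by counting error alone. With IL1β the WT mice had 14.1, 13.9, 11.01 and 15.4 CPM and the *Tet2*-KO mice 40.9, 41.5, 34.5 and 34.1 CPM. As measured, the genotypes did not overlap with either treatment, but with vehicle the place of the WT mouse at 0 is not settled by its depth. This is the class and the contrast that chose *Commd10*, so nothing is read from the lack of overlap. The log2 fold change was 1.64 (SE 0.27) with vehicle and 1.52 (SE 0.25) with IL1β.

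Across the differentiated classes the difference had no single size. Of the classes given here, Baso, pDC and DC passed the filter only through *Tet2*-KO mice, which favours a higher *Tet2*-KO level in them. Basophils are granulocytes that respond through the IgE receptor. In Baso the WT mice had 6.05 to 15.4 CPM with vehicle and the *Tet2*-KO mice 45.8 to 75.0 CPM, a log2 fold change of 2.82 (SE 0.24). With IL1β the levels were 7.96 to 12.1 and 50.5 to 72.7 CPM, and the log2 fold change was 2.62 (SE 0.19). In Mono the WT mice had 12.1 to 19.0 and the *Tet2*-KO mice 53.6 to 60.6 CPM with vehicle, with a log2 fold change of 2.02 (SE 0.16). In pDC the vehicle groups overlapped through WT mouse 2 alone, at 63.2 CPM from 2 UMIs in 13 cells, where the *Tet2*-KO mice had 49.1 to 71.6 CPM. In DC with IL1β, WT mouse 4 had 0 of 37771 UMIs, which allows up to 79.4 CPM, so its place below the *Tet2*-KO mice (42.5 to 90.8 CPM) is not settled by its depth.

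CFU-E and EryB had the lowest mean *Commd10* levels in *Tet2*-KO mice in CPM, a share of the UMIs of a class and not a level per cell. In WT mice their levels lay within the spread of those of Neut and Gran/Mono Prog. With vehicle, their folds were smaller than that of HSC but larger than that of MegP. In CFU-E the WT vehicle mice had 3.17 to 7.62 CPM and the *Tet2*-KO vehicle mice 11.8 to 13.9 CPM (log2 fold change 1.10, SE 0.22). With IL1β, WT mouse 4 reached 16.2 CPM, from 11 UMIs in 70 cells, and lay above all 4 *Tet2*-KO mice (12.4 to 15.8 CPM), so the groups overlapped through this mouse. EryB went from 5.89 to 8.62 CPM in WT to 9.46 to 22.2 CPM in *Tet2*-KO mice with vehicle (log2 fold change 1.27, SE 0.23). MEP, the stage before them, had 8.48 to 13.1 and 28.1 to 36.2 CPM (log2 fold change 1.51, SE 0.26).

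MegP had the smallest estimate of the 12 classes. With vehicle the WT mice had 7.37, 18.01, 9.01 and 23.8 CPM and the *Tet2*-KO mice 6.68, 21.8, 14.2 and 19.3 CPM, which overlap fully. The log2 fold change was 0.07 (SE 0.37). With IL1β the WT mice had 11.8 to 21.9 and the *Tet2*-KO mice 18.5 to 29.0 CPM, and the ranges again overlapped (log2 fold change 0.54, SE 0.33). The sign of the MegP estimate with vehicle turned negative when any of 4 single mice was left out. MegP cells of WT mice had a *Commd10* level among the higher WT ones (15.3 ± 5.92 CPM, SD, n = 8).

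CPM is a share of the UMIs of a class, and TMM factors were computed within each class. Classes differ in UMIs per cell, with a median in WT vehicle mice of 2837 in the HSC cluster and 7163 to 15690.5 in the EryB clusters. Orders of classes by CPM are thus orders of shares, and none per cell was computed. The level of *Commd10* in CPM also differed between classes within a genotype. In WT mice it ran from 7.38 ± 3.89 CPM in CFU-E to 22.4 ± 17.2 CPM in pDC (SD, n = 8), and no neighbouring classes in that order differed by more than their spread. The place of pDC rests on WT vehicle mouse 2 (63.2 CPM from 2 UMIs), without which its mean was 16.6 ± 5.42 CPM (n = 7), below the 18.4 ± 13.2 CPM of DC (n = 7). In *Tet2*-KO mice it ran from a range of 11.8 to 15.8 CPM in CFU-E to one of 42.5 to 121 CPM in DC (n = 8). The order in *Tet2*-KO mice was DC, pDC, Baso, Mono, IMP, HSC, Neut, MEP, Gran/Mono Prog, MegP, EryB and CFU-E. Of these, DC, pDC, Baso and Neut passed the filter only through *Tet2*-KO mice, and classes that did not pass are not ranked. The order and the *Tet2*-KO ratio below thus in part follow the filter. Among neighbours in this order, Mono (55.3 ± 5.26 CPM) and IMP (36.5 ± 3.15 CPM) were further apart than their SDs, as were MEP (31.8 CPM on average) and Gran/Mono Prog (25.6 CPM), by a gap of 6.20 CPM. The ratio of the highest to the lowest class was 3.04 in WT, or 2.49 without that mouse in pDC, and 5.45 in *Tet2*-KO mice. Over the 12 classes, the mean levels in WT and *Tet2*-KO mice correlated with a Spearman rho of 0.66 and Pearson r of 0.71, as a description of classes that share mice and libraries.

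In the remaining 4 classes *Commd10* failed the filter, and only UMIs pooled over mice are given, in CPM with exact Poisson intervals that cover counting error alone. T/NK cells with vehicle had 3 UMIs in WT mice, 6.12 CPM (95% interval 1.26 to 17.9), and 21 UMIs in *Tet2*-KO mice, 36.2 CPM (22.4 to 55.3). In B/plasma cells with vehicle there was 1 UMI in WT mice (1.37 CPM, 0.0347 to 7.64) and 15 in *Tet2*-KO mice (21.0 CPM, 11.8 to 34.7). CLP with vehicle had 8.14 CPM (3.90 to 14.96) in WT and 31.6 CPM (21.8 to 44.4) in *Tet2*-KO mice. The spread between mice is not part of these intervals, so no genotype difference is read from them.

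With IL1β the pooled level in B/plasma cells was 7.97 CPM (4.12 to 13.9) in WT, from 12 UMIs, and 22.9 CPM (14.5 to 34.4) in *Tet2*-KO mice, from 23 UMIs, of which 13 were from 1 mouse. In T/NK cells it was 8.73 CPM (2.38 to 22.3) in WT and 32.8 CPM (22.3 to 46.5) in *Tet2*-KO mice, where 1 mouse gave 21 of the 31 UMIs. In CLP, with 4 and 6 UMIs, it was 22.5 CPM (6.14 to 57.7) and 35.9 CPM (13.2 to 78.1). In Eo the pooled levels were 13.8 and 18.1 CPM with vehicle, from 3 UMIs each, and 14.8 and 21.5 CPM with IL1β, from 7 and 8 UMIs.

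**Figure D2:**
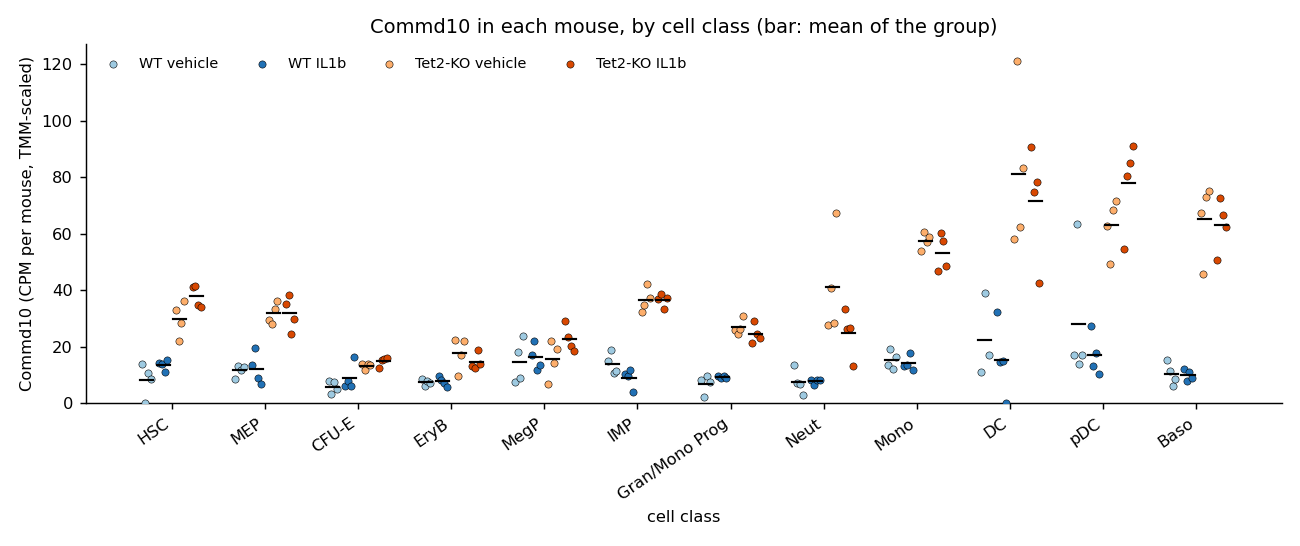
*Commd10* in CPM (vertical axis, TMM-scaled) in each mouse for the 12 classes in which it passed the filter, with 1 point per mouse, coloured by group, and a bar at each group mean. The *Tet2*-KO points lie above the WT points in most classes, reach their highest values in DC, pDC and Baso, and mix with the WT points in MegP. DC, pDC, Baso and Neut passed the filter only through *Tet2*-KO mice.

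The other 9 members, the partners of *Commd10* in the same complex, showed no called genotype difference. They gave 122 tests over the classes where they passed the filter, out of 134 of 160 member and class pairs that passed in all. With vehicle, 0 of 122 passed an adjusted p of 0.05 by the quasi-likelihood test of edgeR, adjusted after Benjamini and Hochberg over all genes and classes together, and 2 had an unadjusted p under 0.05. With IL1β it was 0 of 122 with 3, and averaged over both treatments 0 of 122 with 5. DESeq2 called 0 of 122 in each comparison as well. Few genes were called in these comparisons at all, 0.0217% of all tests with vehicle, 0.0739% with IL1β and 0.125% averaged over both, so that 0 of 122 is near the background. The intervals are therefore given as well.

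Averaged over both treatments, the median log2 fold change of the 9 members was 0.04, beside 0.01 over all tests, with 72 estimates above 0 and 50 below. The 95% interval lay within -1 to 1 in 114 of 122 tests. The 8 wider intervals were in CLP, Eo, T/NK and DC. In HSC, the 9 estimates lay between -0.19 and 0.23 and the intervals between -0.62 and 0.59. The largest estimates were 0.76 (SE 0.34) for *Commd3* in Eo and 0.72 (SE 0.49) for *Commd2* in CLP, with adjusted p of 0.716 and 0.874 in the same edgeR test. By treatment the estimates were less precise, and the interval lay within -1 to 1 in 110 of 122 tests with vehicle and in 100 of 122 with IL1β. The largest estimates were then 1.05 (SE 0.52, 95% interval -0.02 to 2.13) for *Commd3* in Eo with vehicle and 1.70 (SE 1.04, 95% interval -0.41 to 3.82) for *Commd1* in CLP with IL1β. For *Commd4* in pDC with vehicle the estimate was too near 0 for its SE, a ratio to the test statistic, to be usable, and this test is counted among those outside.

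Summed over all cells, each of the 9 had a log2 fold change between -0.07 and 0.07 averaged over both treatments. *Commd1* was at 79.0 to 91.2 CPM in WT and 69.5 to 98.5 CPM in *Tet2*-KO mice with vehicle, which overlap (log2 fold change 0.00, 95% interval -0.31 to 0.31). *Commd8*, which pairs with *Commd3* as an adaptor for chemoattractant receptor kinases in B cells, had 51.2, 43.2, 48.5 and 50.1 CPM in WT and 46.0, 43.1, 48.6 and 50.3 CPM in *Tet2*-KO mice with vehicle. Its interval averaged over treatments, -0.18 to 0.04, was the narrowest of the family. For *Commd9*, which has been tied to the recycling of Notch, the interval was -0.16 to 0.27. For *Commd5*, first described as a hypertension-related, calcium-regulated gene, it was -0.14 to 0.24.

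**Figure D3:**
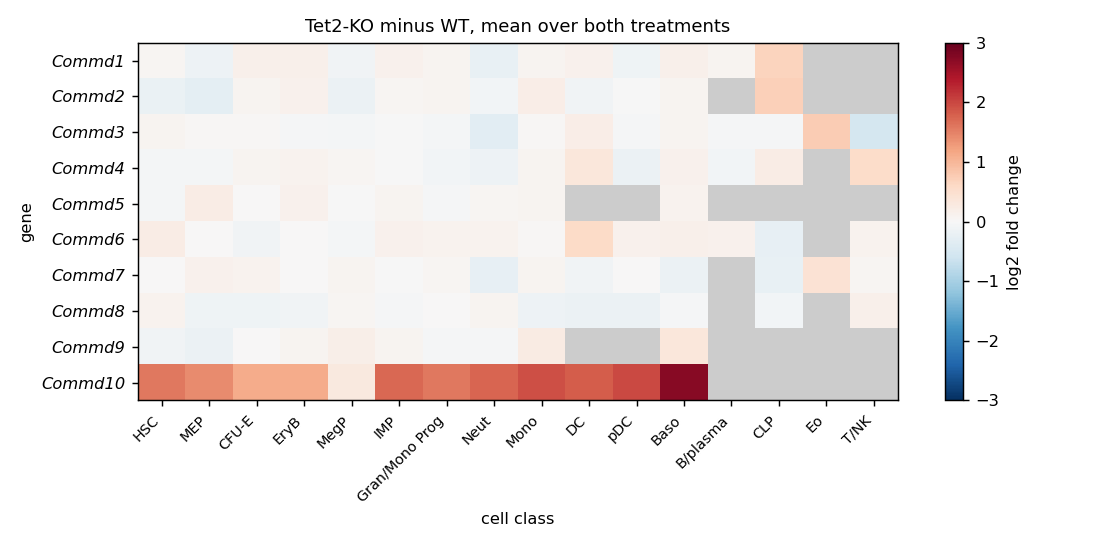
Log2 fold change of *Tet2*-KO against WT mice, averaged over both treatments, for the 10 members (rows of the plot) in the 16 cell classes (columns), with grey where a gene did not pass the filter on low counts. *Commd10* is the only gene with strong colour across the plot, from 0.30 in MegP to 2.72 in Baso, while the other 9 lie between -0.52 and 0.76.

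The genes that lie near *Commd10* were also compared between the genotypes. Among the genes counted, 13 start within 1 Mb of its start, and 8 of them passed the filter in at least 1 class. Start here means the lower chromosome coordinate on either strand, which is the 3′ end of a gene on the minus strand. Over 92 tests averaged over both treatments, 0 were called by edgeR, 3 had an unadjusted p under 0.05, and DESeq2 called 0. With 0.125% of all tests called in this comparison, 0 of 92 is near the background. Their median log2 fold change was -0.0026 (range -0.37 to 0.65), beside 0.01 over all tests. With vehicle and with IL1β taken separately the calls were also 0 and 0, with 4 and 6 at an unadjusted p under 0.05, and the estimates ran from -0.62 to 0.71 and from -0.71 to 0.95. The lowest adjusted p was that of *Eif1a* in Mono with vehicle (log2 fold change 0.71, SE 0.14, 95% interval 0.41 to 1.01, unadjusted p = 5.6e-05, adjusted p = 0.148 in edgeR's test).

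Of the 8, *Ap3s1*, which encodes a subunit of the AP-3 trafficking adaptor and starts 217 kb before *Commd10*, was well counted (95707 UMIs in all cells) with a median log2 fold change of -0.0045 over 16 classes. *Atg12*, an autophagy gene 229 kb away, had a median of -0.04 over 12 classes. *Eif1a*, a translation initiation factor, had -0.02 over 16 classes, and *Tmed7*, a cargo receptor of the early secretory pathway, 0.02 over 16. *Ticam2*, an adaptor of Toll-like receptor signaling, had 0.02 over 4 classes. *Fem1c*, *Ccdc112* and *Pggt1b* had medians of -0.05, 0.16 and 0.05 over 13, 4 and 11 classes. The 5 others were not tested. They include *Sema6a*, the only one downstream, with 16 UMIs in all cells, and *Lvrn*, with 0.

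**Figure D4:**
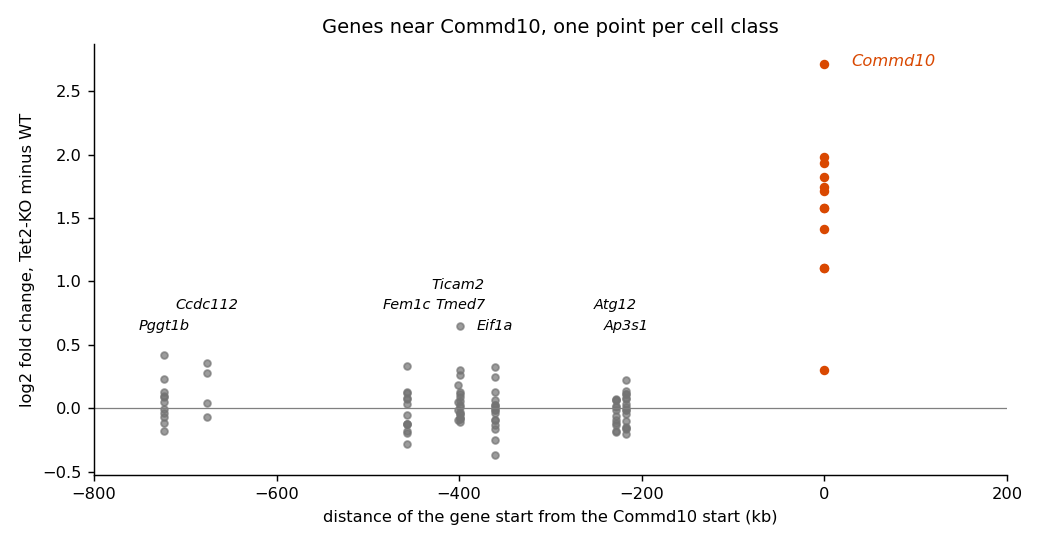
Log2 fold change of *Tet2*-KO against WT mice, averaged over both treatments (vertical axis), for the 8 tested genes near *Commd10* and for *Commd10*, by the distance of each gene's start from that of *Commd10* (horizontal axis, kb), with 1 point per cell class. Start is the lower chromosome coordinate on either strand. The grey points of the neighbours scatter around 0. The *Commd10* points show the contrast that chose it.

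The same window was drawn around each of the other 9 members. Of 1344 tests around all 10 members averaged over both treatments, 1 was called, or 0.0744%, below the 0.125% of all tests. With vehicle 1 was called as well (0.0744%, beside 0.0217% of all tests), and with IL1β 0 (beside 0.0739%). A count of 1 at most is no result about the neighbours. The called test was that of *Id1* in Gran/Mono Prog in both cases. This gene lies near *Commd7* and encodes an inhibitor of differentiation factors. Its log2 fold change there was 1.17 (SE 0.15, adjusted p = 0.00198 in edgeR's test) with vehicle, 0.48 (SE 0.13, adjusted p = 0.232) with IL1β and 0.83 (SE 0.0979, adjusted p = 0.000275) averaged over both. Averaged over both treatments, the medians around the 10 members ran from -0.09 to 0.02.

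The partner genes of the family were taken as a list of 17 from the CCC, retriever and WASH complexes and the known interactors of COMMD1. All 17 were tested in at least 1 class. In *Tet2*-KO against WT mice 0 of 199 tests were called with vehicle, 0 of 199 with IL1β and 0 of 199 averaged over both (edgeR, 10, 7 and 11 with an unadjusted p under 0.05; DESeq2 called 0 in the average). Among all tests 0.0217%, 0.0739% and 0.125% were called, so these counts too are near the background. The median log2 fold change averaged over both treatments was 0.04, beside 0.01 for all tests. The lowest adjusted p of any partner in the average was 0.509.

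For genotype differences that change with IL1β, the interaction was tested in all 10 members. Of 134 tests 0 were called by edgeR and 0 by DESeq2, with 1 at an unadjusted p under 0.05 in each, and the share called among all tests was 0% with edgeR. For *Commd10* the interaction is the difference between its genotype contrasts with IL1β and with vehicle, the kind of contrast that chose it. Its values are thus a description. The interaction ranged over classes from -0.35 to 0.47 on the log2 scale with SEs of 0.22 to 0.68. In the sum of all cells it was -0.08 (95% interval -0.33 to 0.18). A change of the genotype difference with IL1β of up to those bounds is thus not shown to be absent.

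IL1β itself went with more calls of a lower level in the family than among all genes, with none for *Commd10* or *Commd8*. In WT mice 33 of 134 tests were called, all of them lower, which is 24.6% beside 11.1% of all tests called and 6.54% called lower. In *Tet2*-KO mice 33 of 134 were called and all were lower, 24.6% beside 13.5% of all tests called and 7.78% called lower. The median log2 fold change of the members was -0.37 and -0.41, beside 0.03 and 0.02 over all tests. Of the calls, 21 were shared, 63.6% of those in either genotype. DESeq2 called 24 and 23, 17.9% and 17.2% of the member tests, beside 8.66% and 10.4% of all tests.

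These counts depended on single mice and on the pools. Among WT mice the count fell from 33 to 18 without WT vehicle mouse 1 (13.95% of the member tests, beside 6.40% of all tests) and to 15 without WT IL1β mouse 3 (11.2% beside 5.52%), the mouse that also carried *Xist*. Among *Tet2*-KO mice the count was 17 without vehicle mouse 3 (13.1% beside 7.997%), 20 without vehicle mouse 4 (15.2% beside 7.75%) and 18 without IL1β mouse 2 (13.4% beside 9.89%). Without vehicle mouse 1 it was 40 (31.3% beside 14.8%). The share called among all tests thus moved in the same direction as that of the members. With the 2 pools of a group as replicates in place of its 4 mice, 13 of 153 tests were called in WT mice (8.497%, beside 2.90% of all tests). This setting also took in the barcodes without a hashtag, so the cells and the replicates changed together. In *Tet2*-KO mice 5 of 153 were called then (3.27%), close to the 3.01% of all tests. The medians were -0.40 and -0.39 under this setting, while the number of calls was lower in both genotypes. Mice of 1 pool share a library, so the tests over mice count in part the spread between mice within a library.

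*Commd1* had the most called classes. Summed over all cells, its level was 91.2, 90.3, 81.1 and 79.0 CPM in WT mice with vehicle and 56.5, 56.9, 38.8 and 40.4 CPM with IL1β. In *Tet2*-KO mice it was 69.5, 80.5, 98.5 and 92.6 CPM with vehicle and 52.1, 42.3, 59.0 and 59.8 CPM with IL1β. The treatments did not overlap in either genotype, and the share of all genes apart in this way was not computed. In each of the 4 groups the first 2 values, from one pool, lay apart from the last 2, from the other. In each *Tet2*-KO group one pool held 2 females and the other 2 males, so that pool and sex cannot be told apart there. The log2 fold change was -0.82 (SE 0.15, adjusted p = 0.00187) in WT and -0.68 (SE 0.14, adjusted p = 0.00297) in *Tet2*-KO mice in edgeR's test on these sums. That test takes the 4 mice of a group as separate although they share 2 libraries, and these sums were not fitted with pools as replicates.

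By class, *Commd1* was called lower in 12 of 14 classes in WT and in 10 of 14 in *Tet2*-KO mice, with estimates below 0 in 14 of 14 in both. With pools as replicates it was called in 8 of 14 classes in WT and in 1 of 14, MEP, in *Tet2*-KO mice, and DESeq2 called 9 and 7 of 14. In WT mice 7 of 14 classes were called without WT IL1β mouse 3 and 6 of 13 without WT vehicle mouse 3. In *Tet2*-KO mice 6 of 13 were called without vehicle mouse 3. The estimates stayed below 0 in each of these fits.

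In HSC the level of *Commd1* went from 58.6, 39.2, 78.4 and 60.9 CPM with vehicle to 32.5, 38.1, 25.7 and 20.5 CPM with IL1β in WT mice (log2 fold change -1.15, SE 0.27, adjusted p = 0.00612 in edgeR's test). The lowest vehicle mouse had 3 UMIs of *Commd1* and the lowest IL1β mouse 4. With 3 UMIs, that vehicle mouse (39.2 CPM) is not settled to lie above WT IL1β mouse 2 (38.1 CPM, 11 UMIs). As measured, the groups did not overlap. In *Tet2*-KO HSC they did, at 36.1, 48.2, 63.9 and 70.1 CPM with vehicle and 16.4, 32.7, 36.6 and 53.9 CPM with IL1β (log2 fold change -0.57, SE 0.22, adjusted p = 0.0914 in edgeR's test), and no member was called in HSC of these mice. The difference between the genotypes in this change was 0.59 (SE 0.35) and was not called. In Gran/Mono Prog, with the most cells of any class, the WT mice went from 92.2 to 102 CPM with vehicle to 37.9 to 60.6 CPM with IL1β (log2 fold change -0.94, SE 0.15). The *Tet2*-KO mice went from 78.9 to 112 CPM to 44.5 to 64.9 CPM there (log2 fold change -0.74, SE 0.15). The steepest estimate, -2.67 in CLP of WT mice, had an SE of 0.73 and rests on 2 UMIs in 52 cells with IL1β.

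Fewer classes were called for 7 other members, all of them lower. *Commd4*, a structural subunit, was called lower in 6 of 15 classes in WT and 5 of 15 in *Tet2*-KO mice, with medians of -0.52 and -0.45. *Commd3* was called in 2 and 8 of 16 classes (medians -0.38 and -0.46), and *Commd2* in 5 and 3 of 13 (-0.46 and -0.47). *Commd5* was called in 4 and 2 of 10 classes, with the lowest adjusted p in IMP of *Tet2*-KO mice (log2 fold change -0.88, SE 0.15, adjusted p = 0.000392 in edgeR's test). *Commd6*, which is little more than a COMM domain, was called in 2 and 1 of 15 classes, *Commd7*, another inhibitor of NF-κB, in 1 and 3 of 15, and *Commd9* in 1 and 1 of 10. The shares of *Commd6* (13.3% and 6.67%) and *Commd9* (10.0% in both), and in WT mice of *Commd3* (12.5%) and *Commd7* (6.67%), were near or below the 11.1% and 13.5% of all tests called, so these counts are no result about those members. Gran/Mono Prog was the class with the most called members, 7 in WT and 8 in *Tet2*-KO mice of 10 tested. It was also the class with the largest share of all its genes called lower, 13.5% in WT and 16.8% in *Tet2*-KO mice.

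*Commd8* and *Commd10* were called in no class in either genotype. For *Commd10* in WT mice this says little in Baso, DC, Neut and pDC, which passed the filter only through *Tet2*-KO mice. WT mice had few *Commd10* UMIs there, such as 17 in Neut with vehicle and 11 in DC with IL1β. For *Commd8* the log2 fold change had a median of 0.06 in WT and 0.00 in *Tet2*-KO mice over 14 classes, and in the sum of all cells -0.01 (95% interval -0.17 to 0.15) and -0.06 (-0.22 to 0.10). *Commd10* had medians of 0.10 and -0.05 over 12 classes, and in the sum of all cells 0.04 (-0.15 to 0.23) and -0.04 (-0.21 to 0.14). A fall of the size of that of *Commd1* lies outside these intervals in both genotypes. Summed over all cells, edgeR called 7 of the 10 members lower in WT mice, with *Commd5* just short (log2 fold change -0.34, adjusted p = 0.0626), and 8 of 10 in *Tet2*-KO mice. In these sums 26.1% and 32.0% of all genes were called in either direction.

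**Figure D5:**
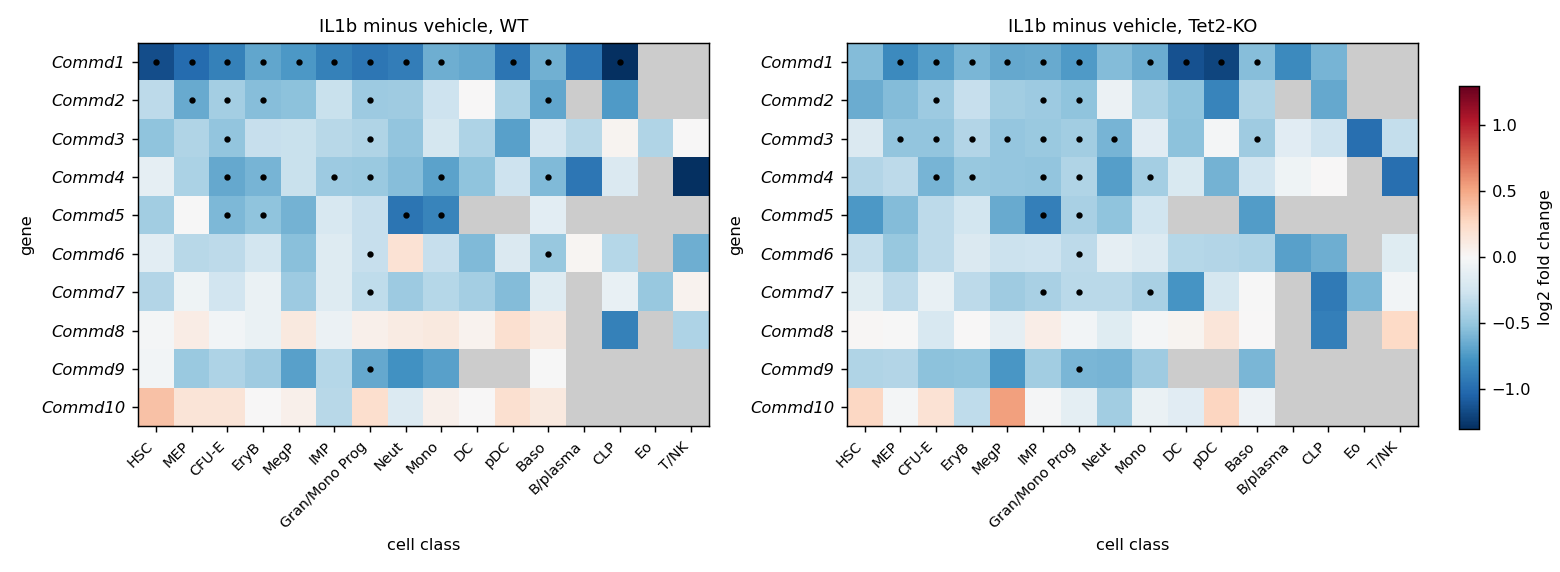
Log2 fold change with IL1β against vehicle in WT (left) and *Tet2*-KO mice (right) for the 10 members (rows of the plot) in the cell classes (columns), with a dot where an adjusted p was under 0.05 and grey where the gene did not pass the filter on low counts. Blue, lower with IL1β, covers most of the plot with *Commd1* darkest, and *Commd8* and *Commd10* have no dot. The colours are clipped, so *Commd1* in CLP (-2.67) and *Commd4* in T/NK cells (-1.39) of WT mice have the end colour.

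Over all genes, the IL1β change went with the length of transcripts, a description added after the data were seen. When all tests were split into 5 parts of about equal gene number by median transcript length, the shortest part, up to 1436 bases, reached a median of -0.26 on the log2 scale in WT and -0.26 in *Tet2*-KO mice and 20.6% and 21.3% of its tests called lower. In the longest part, from 4266.5 bases, the medians were 0.14 and 0.16. Of the members, 6, *Commd3*, *Commd4*, *Commd5*, *Commd6*, *Commd9* and *Commd10*, are in the shortest part, with lengths of 600 to 1191 bases. Measured from the median of the genes in its own part and class, the median of the 134 member tests was -0.21 in WT and -0.23 in *Tet2*-KO mice, in place of -0.37 and -0.41.

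*Commd1* (2983.5 bases), *Commd2* (2992 bases) and *Commd7* (2276.5 bases) belong to the middle part, and their medians on that measure were -0.97, -0.54 and -0.42 in WT mice. *Commd10*, the shortest at 600 bases, lay above its part by 0.37 in WT and 0.24 in *Tet2*-KO mice. *Commd6* lay close to its part, at -0.04 and -0.09. *Commd8* (3895 bases), in the next longer part after the middle one, lay below its part at -0.07 and -0.12, in 12 of 14 classes in both genotypes, although it was called in none. The part of transcript length, of RNA quality or of the libraries in the IL1β change was not tested.

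Among the partner genes, IL1β went with changes in both directions. In WT mice 10 of 199 tests were called higher and 8 lower, and in *Tet2*-KO mice 15 higher and 8 lower, 9.05% and 11.6% of the tests, which is below the share among all tests in both genotypes. All the lower calls were of *Vps29*, the smallest retriever subunit, which was called in 8 of 15 classes in each genotype (median log2 fold change -0.65 and -0.50). *Xiap*, a ubiquitin ligase that binds COMMD1, was called higher in 4 and 7 of 16 classes (medians 0.40 and 0.39), and *Rela*, the NF-κB subunit, in 2 and 2 of 15 (0.29 and 0.28). The copper transporters *Atp7a* and *Atp7b* and the CCC subunits *Ccdc22* and *Ccdc93* were called in no class. The WASH subunit *Washc5* (E430025E21Rik in the files) was called higher in 1 and 2 of 10 classes, and the retriever subunit *Vps35l* (9030624J02Rik) in 1 and 1 of 12 (8.33% in both). The counts of *Rela* (13.3% in both) and *Vps35l*, and of *Washc5* in WT mice (10.0%), are near or below the share of all tests called and are no result about these genes.

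The genes whose level over the 16 mice was most like that of *Commd10*, by Spearman correlation over summed cells among 7987 genes of at least 10 CPM, were *Akr1c13* (0.84), *Ifitm1* (0.79), *Msmo1* (0.77), *Tgfbr1* (0.74) and *Arl11* (0.71). Because *Commd10* was selected for its genotype difference, this ranking in part orders genes by genotype. These are the highest of many correlations, no chance level was computed, and nothing is read from them. Of these, *Akr1c13* had 11.3 CPM in WT and 15.2 CPM in *Tet2*-KO mice on average, and *Ifitm1* 135 and 212 CPM. The other COMMD members had correlations of -0.16 to 0.17 with *Commd10* over the mice. Over the 12 cell classes of WT vehicle mice, where the points share mice and libraries, the most alike among 3940 genes were *Spop* (0.94), *Nek7* (0.87), *Lcorl* (0.87), *Zbtb18* (0.87) and *Sec24b* (0.85), and within the family *Commd8* (0.69) and *Commd4* (0.65). The *Commd10* values here include pDC with WT vehicle mouse 2 (63.2 CPM from 2 UMIs) and classes that passed the filter only through *Tet2*-KO mice. No chance level was computed for this ranking either.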

How the data were processed

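Lineage-depleted marrow cells of 16 mice were profiled with 10x 3′ chemistry in 8 libraries of 2 hashtagged mice each. The authors deposited matrices of whole-number UMI counts per gene and barcode, with hashtag counts, made with Cell Ranger 3.1.0 on mm10, and the submitters' processing notes also name Seurat 3.2.3. Counts were not normalised before deposit.

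Barcodes with at least 750 genes and at most 10% mitochondrial UMIs were kept (94917 of 121405, 11555 to 19573 deposited barcodes per library). HTODemux (Seurat 5.3.0) assigned 57896 to 1 mouse. It gave 3938 (4.15%) both hashtags, which were left out as doublets. A further 33083 (34.9%) had none and were left out except in the setting with pools as replicates. No other doublet caller was run. Of 93850 distinct barcode sequences, 1061 occurred in 2 or more libraries. Assigned WT vehicle cells were clustered (30 principal components, 2000 variable genes without the COMMD genes, 20 neighbours, Leiden resolution 1, leidenalg 0.10.2, scikit-learn 1.9.0) and all others projected. Clusters were named from marker lists.

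UMIs were summed per mouse and class (at least 10 cells per mouse and 2 mice per group), filtered with filterByExpr, scaled with TMM factors and fitted by edgeR 4.0.16 (quasi-likelihood, R 4.3.3, all 4 groups in 1 fit). P-values were adjusted jointly over 114989 gene and class pairs per comparison, with calls at an adjusted p under 0.05. A standard error is the absolute log2 fold change divided by the square root of F, and intervals are 95%. Mice are separate animals. The script was tested on simulated counts. Depth was 4388604 to 44152768 UMIs per mouse. UMIs at 3′ ends do not compare levels between genes, and limits for a count of 0 use 3 counts and cover counting error only.

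The members and lists were chosen with earlier results of these data known. Named genes are the 10 members, the partner list of 17 genes, genes starting (by lower coordinate) within 1 Mb of *Commd10*, called neighbours of other members, and the 5 genes most like *Commd10*. Replicate numbers name mice in pools. Deviations of mice with the same number correlated at -0.54 to 0.56 (24 pairs, 9 above 0.1). Those of mice with other numbers correlated at -0.52 to 0.55 (72 pairs, 20 above 0.1). The main fit did not take the numbers as pairing mice across groups, and fits with them as blocks are given as well. Alternatives were DESeq2 1.42.0, its size factors, no filter, at least 30 cells, resolution 1.5, marker gates per cell, pools as replicates, sex, replicate blocks, a sum over all cells, a window of 0.5 Mb and leaving out each mouse.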

Additional observations from a re-analysis of the deposited data

Results flagged for a closer look

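Of 139 groups of 4 mice examined (*Commd1* and *Commd10* by class, and each member in the sum of all cells), 5 held 1 mouse far from the other 3 by Dixon's ratio, where chance gives about 1 in 20, or 6.95. *Commd1* in IMP was at 96.0 CPM in WT vehicle mouse 1 and at 76.9 to 79.4 CPM in the others. *Commd1* in Mono was at 37.9 CPM in WT vehicle mouse 2, from 4 UMIs in 33 cells, where the others had 100.4 to 103.6 CPM. *Commd10* in CFU-E was at 16.2 CPM in WT IL1β mouse 4, from 11 UMIs in 70 cells, and at 6.02 to 7.65 CPM in the others. *Commd10* in Neut was at 6.45 CPM in WT IL1β mouse 2 beside 8.23 to 8.30 CPM. *Commd10* in pDC was at 63.2 CPM in WT vehicle mouse 2, from 2 UMIs in 13 cells, beside 13.7 to 17.2 CPM.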

How the results depend on the processing

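With the pools of a group as its replicates and barcodes without a hashtag included, the members called with IL1β numbered 13 in WT mice (8.497% of 153 tests, beside 2.90% of all tests). In *Tet2*-KO mice they numbered 5 (3.27%, beside 3.01%). The counts in the main fit were 33 and 33 of 134 tests. In the sum of all cells they numbered 7 and 8 of 10 tests, beside 26.1% and 32.0% of all genes. DESeq2 called 24 and 23, beside 8.66% and 10.4% of all tests. Leaving out 1 mouse gave 15 to 33 calls in WT and 17 to 40 in *Tet2*-KO mice, all lower, while the share of all tests called ran from 5.52% to 11.6% and from 7.75% to 14.8%. The share of member tests was above it in 16 of 16 fits in both genotypes. They are not separate checks, because they share most mice, and leaving out a mouse of the other genotype keeps every compared mouse. *Commd1* was called lower in 6 to 12 classes in WT and 6 to 11 in *Tet2*-KO mice in these fits, and with pools as replicates in 8 and 1 of 14. With the mouse number as a replicate block the IL1β counts were 27 in WT (20.1% of the member tests, beside 9.64% of all tests) and 29 in *Tet2*-KO mice (21.6% beside 12.4%). With the pool number as a block they were 33 (24.6% beside 11.5%) and 36 (26.9% beside 14.4%). Under either block 0 members were called for genotype. The counts of members other than *Commd10*, partners and *Commd10* neighbours called for genotype, and of members called for interaction, were 0 to 0 with each mouse left out. The median *Commd10* difference between genotypes was 1.54 to 1.67 then. In MegP with vehicle, the *Commd10* estimate turned negative without WT vehicle mouse 1 (-0.09), WT vehicle mouse 3 (-0.15), *Tet2*-KO vehicle mouse 2 (-0.21) or *Tet2*-KO vehicle mouse 4 (-0.01), reached 0.47 without WT vehicle mouse 4, and the cause was not tested. Among genes near any member, 1 was called in each fit without 1 mouse, 0 within 0.5 Mb (fewer genes tested) and 0 in the sum of all cells. With classes set by marker gates per cell, *Commd10* passed the filter in 15 of 19 classes and was higher in *Tet2*-KO mice in 15 of these 15 (median 1.63). This is the contrast that chose *Commd10*, so it is a description only. Which gated classes passed only through *Tet2*-KO mice was not examined. Depth limits *Commd10* in B/plasma, CLP, Eo and T/NK cells, where it did not pass the filter.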
